A study of Mus musculus with 24 samples.

Results

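Cdx2 binding was mapped in organoids from the proximal and the distal mouse colon, and 264 of 61454 merged Cdx2 regions met a rule for a bias to the distal organoids. A region was a run of peaks from the 12 Cdx2 libraries that overlapped by at least 1 bp on chromosomes 1 to 19, X and Y. The members were chosen by their peak calls: a distal-biased region was called in at least 4 of the 6 distal libraries, over both media, and in at most 1 of the 6 proximal libraries. The rule took 0.430% of all regions. Its mirror, at least 4 of 6 proximal and at most 1 of 6 distal libraries, took 5116 regions (8.32%), here named proximal-biased, and 5672 regions were shared, meaning called in at least 4 of 6 libraries at each site. The calls chose these classes, so the number of regions in each and their calls by site are a description and were not tested.

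The organoids were grown from normal colon of 3 mice that were heterozygous for a Cre-inducible Braf V600E allele and for a tdTomato reporter, alleles carried by the proximal and the distal groups alike. The sources used here name no Cre step for these libraries. All had grown for 4 months in WENR-plus medium, that is, with the colon niche factors Wnt3a, R-spondin 1, EGF and Noggin. Organoids of either site were studied in WENR-plus and in WENR-minus medium, which made 4 groups of 3 Cdx2 libraries. The WENR-minus organoids had 2 days in WENR-plus medium after plating, followed by 3 days without the factors. Organoids are cultured epithelium, with no stroma or immune cells of the colon wall. The lists hold binding and no expression, so the labelled tissue could not be checked against marker genes.

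Cdx2, a homeodomain protein, sets the identity of the intestinal epithelium and keeps its differentiated programme active. It belongs to the caudal family, relatives of the Hox genes, and binds sites built on a TTTAT core. The posterior Hox proteins, which are expressed toward the hind end of the gut, bind related sites that can hold a TTTAC core.

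The sequences under 6 strongly bound members are shown first, because most of these 6 lacked the site that is typical of Cdx2. They are the 6 with the highest fold ranks among the 34 members called in all 6 distal and 0 proximal libraries. Each is the reference sequence of GRCm38 (mm10) from 50 bp before to 50 bp after the summit, named by the nearest start site of a protein-coding gene. Capitals mark the Cdx2 motif, searched on either strand in the form TTTATGG, the form TTTATGA, the form TTTATTG and the form TTTATTA, and the octamer TTTACAAG on either strand.
Crnn, chr3:93162579-93162679, plus strand: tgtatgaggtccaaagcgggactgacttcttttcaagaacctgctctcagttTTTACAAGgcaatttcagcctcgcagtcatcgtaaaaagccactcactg
Muc16, chr9:18561259-18561359, plus strand: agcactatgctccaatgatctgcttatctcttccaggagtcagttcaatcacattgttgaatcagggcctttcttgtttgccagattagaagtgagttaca
Rgs6, chr12:82849608-82849708, plus strand: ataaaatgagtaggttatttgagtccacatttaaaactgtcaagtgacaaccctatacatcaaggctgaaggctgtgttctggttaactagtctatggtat
Casd1, chr6:4612669-4612769, plus strand: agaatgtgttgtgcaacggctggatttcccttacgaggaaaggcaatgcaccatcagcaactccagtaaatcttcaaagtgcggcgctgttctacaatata
Ergic2, chr6:148280796-148280896, plus strand: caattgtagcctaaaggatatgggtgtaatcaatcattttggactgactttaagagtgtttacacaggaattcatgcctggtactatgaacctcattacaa
Olfr166, chr16:19453658-19453758, plus strand: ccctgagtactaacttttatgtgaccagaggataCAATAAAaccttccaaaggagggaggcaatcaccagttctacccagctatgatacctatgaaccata
The window near Olfr166 held the Cdx2 motif and the window near Crnn held the octamer, while the other 4 windows held neither. These windows do not stand for all members called in 6 distal libraries. Of those 56 members, 29 (51.8%) held the Cdx2 motif, against 46.6% and 38.7% of members called in 4 and 5.

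The calls of the 264 members were spread over the distal libraries. In distal WENR-plus organoids 134, 243 and 176 members were called in replicates 1, 2 and 3. In distal WENR-minus organoids 255, 209 and 226 were called. The proximal WENR-plus libraries called 20, 33 and 8 members, and the proximal WENR-minus libraries 36, 1 and 6. Of the members, 56 were called in 6 distal libraries, 75 in 5 and 133 in 4. A proximal call was absent for 160 members, and 104 had 1. Libraries of all 3 replicate numbers took part in the calls of 253 members. Just outside the rule lay 248 regions with 3 distal and 0 or 1 proximal calls, and 109 with at least 4 distal and 2 proximal calls.

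The lists differed in length, and the number of members moved with it. Distal lists held 5608 to 21040 peaks and proximal lists 11409 to 42192. When each list was cut to its strongest 5608 peaks by −log10 q, 474 regions met the distal rule and 709 met the mirror, and the 474 overlapped 92 of the 264 members (34.8%). The excess of proximal-biased over distal-biased regions was thus far smaller in lists of equal length. The lists give no read counts, and the read totals stated by the study were not used here. A region that is not called may still be bound below the limit of its list.

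**Figure D1:**
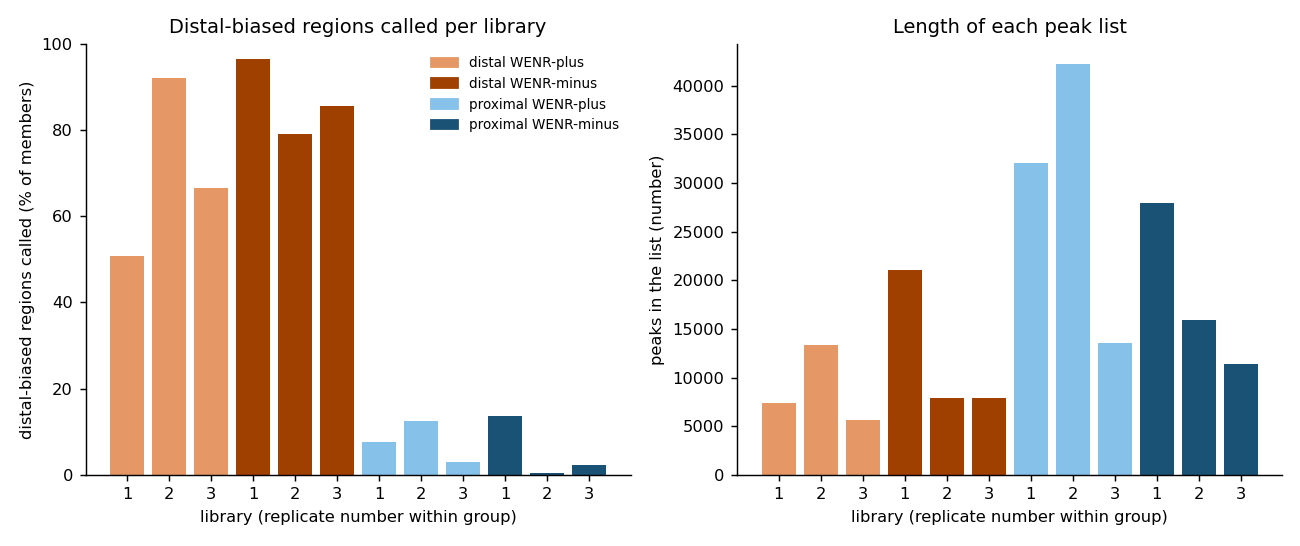
Share of the 264 distal-biased regions called in each of the 12 libraries (left, %) and number of peaks in each list (right), with bars coloured by group and ordered by replicate number. The distal libraries called 50.8% to 96.6% of the members, a bias that the rule itself set. Their lists held 5608 to 21040 peaks against 11409 to 42192 in the proximal libraries.

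The medium was not part of the rule, and its effect within the distal organoids was compared next. Members called made up 69.8 ± 20.8% in the WENR-plus and 87.1 ± 8.81% in the WENR-minus libraries (SD, n = 3 each). The difference of 17.3 percentage points was within the spread of the libraries (two-sided exact permutation p = 0.3, smallest possible 0.1). It rested on replicate 1, without which it was 3.03 points, and it was −1.20 points in lists of equal length. By region, 121 members (45.8%) were called in more WENR-minus than WENR-plus libraries, where the background over all 6230 regions called in at least 4 distal libraries was 27.3%. Another 37 members (14.02%) were called in more WENR-plus libraries, against a background of 11.7%. Calls were equal between the media for 106 members (40.2%) and for 3800 of the 6230 regions. Ties were thus rarer in members, so the gap between 45.8% and 27.3% does not compare the media alone. These shares were not tested, and the longest distal list, with 21040 peaks, was a WENR-minus one.

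How strongly members were bound was measured as the rank of their fold, the ratio of summit signal to input background, among the peaks of the same list. A percentile of 100 is the highest fold in a list. The mean percentile over the distal libraries that called a member ran from 0.156 to 96.5, with a median of 47.8. The median was 63.5 for shared regions and 41.7 for the 2503 proximal-biased regions with a distal peak. Members called in 4, 5 and 6 distal libraries had medians of 45.2, 45.7 and 61.7. The classes and these groups are set by the number of distal calls, so the differences in rank between them are not independent of the rule. Median percentiles of the members called in a library were 33.5, 60.4 and 50.4 in distal WENR-plus and 62.4, 50.3 and 44.1 in distal WENR-minus replicates 1, 2 and 3. The difference between media of 4.14 percentile points was within the spread (two-sided exact permutation p = 0.7), and it was −8.25 points without replicate 1.

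Among the 34 members called in all 6 distal and 0 proximal libraries, the one with the highest rank lay between genes, 14.4 kb from the start site of Crnn, which encodes cornulin, a protein of stratified epithelium. Its fold was 13.7, 14.1 and 14.5 in distal WENR-plus and 14.2, 11.4 and 14.8 in distal WENR-minus replicates 1, 2 and 3. All 6 values were close together and the media overlapped, and no proximal list held a peak there. The second lay in an intron of Muc16, a membrane-bound mucin of wet epithelial surfaces. Its fold was 9.68, 11.1 and 11.9 in WENR-plus and 10.3, 9.86 and 9.84 in WENR-minus libraries. These values again overlapped between the media.

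The third lay in an intron of Rgs6, a regulator of G protein signalling, with fold of 7.75, 15.6 and 11.9 in WENR-plus and 7.53, 11.4 and 9.93 in WENR-minus libraries. A second member lay beside it in the same intron, with its summit at chr12:82848697 against chr12:82849658, and it too was called in all 6 distal and 0 proximal libraries. The region near Casd1, an enzyme that O-acetylates sialic acids, had fold of 8.81, 18.7 and 11.5 in WENR-plus and 9.36, 7.89 and 7.48 in WENR-minus libraries. Its WENR-plus replicate 2 stood above the other 5 libraries.

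The region in an intron of Tmtc1, whose nearest start site was that of Ergic2, had fold of 12.3, 9.98 and 11.5 in WENR-plus and 9.68, 5.52 and 9.79 in WENR-minus libraries. All 3 WENR-plus values were above the 3 WENR-minus values. The region near Olfr166, an olfactory receptor gene, went the other way, with 6.61, 7.55 and 8.11 in WENR-plus and 10.01, 9.07 and 9.79 in WENR-minus libraries. The region 290.3 kb from Klf12, a Krüppel-like transcription factor, had 7.05, 6.66 and 7.68 in WENR-plus and 9.04, 8.68 and 8.39 in WENR-minus libraries. Fold was made against the input of each library, so these orders were not tested. The remaining members of these 10 lay near Mrps6, in an intron of Slc35g2 and near Lor, with fold of 5.49 to 15.8, 5.73 to 11.5 and 5.92 to 9.33 over the 6 distal libraries.

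**Figure D2:**
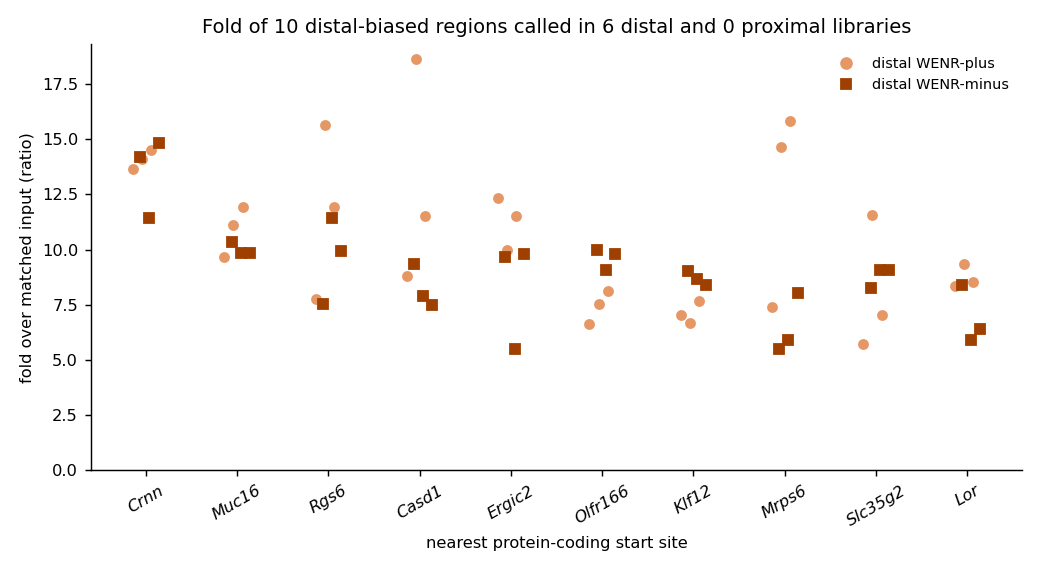
Fold over the matched input (vertical axis, ratio) of the 10 members with the highest fold ranks among those called in 6 distal and 0 proximal libraries, 1 point per distal library, with circles for WENR-plus and squares for WENR-minus. The region near Crnn lay between 11.4 and 14.8 in all 6 libraries, and the points of the media overlap for most regions.

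At promoters, 63 members (23.9%, 95% Wilson interval 19.1% to 29.4%) had their summit within 3 kb of the start site of any annotated transcript. This share was 17.7% (16.7% to 18.8%) for proximal-biased and 19.8% (18.8% to 20.9%) for shared regions. A further 7 members were exonic, 103 (39.0%) intronic and 91 (34.5%) intergenic, against 42.0% of shared regions between genes. These intervals cover counting error only. With each distal library's own summits, the promoter share was 23.8 ± 0.388% in members and 20.2 ± 1.22% in shared regions (SD over 3 replicate numbers, each the mean of both media). Every library scored calls from the same fixed sets of regions, so this spread and the test below cover summits and calls, not independent regions. The difference of 3.68 percentage points was positive for 3 of 3 replicate numbers (two-sided exact sign-flip permutation p = 0.25, the smallest possible). It was −0.900 points in lists of equal length, so its direction depended on the length of the lists.

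The 10 members with the highest fold ranks within 3 kb of a protein-coding start site lay near genes of varied function. They were Akap9, a kinase-anchoring scaffold, Prss2, a trypsin, Nxpe4, Steap2, a metalloreductase, Uri1, a chaperone-like protein, Klf6, a Krüppel-like transcription factor, Cyp2d34, a cytochrome P450, Chp2, a partner of sodium-proton exchangers, Sec22a, of vesicle traffic, and Dram2, of autophagy. The region 1.66 kb from the Akap9 start site had fold of 9.01, 10.7 and 8.96 in distal WENR-plus and 7.75, 7.10 and 11.2 in distal WENR-minus libraries. Its single proximal call, in WENR-plus replicate 2, had a fold of 4.70, below every distal value. The region 1.33 kb from Prss2 had 7.49, 12.0 and 10.8 in WENR-plus, 6.46 and 7.34 in WENR-minus replicates 1 and 3, and no call in WENR-minus replicate 2. Nxpe4 carried 2 members within 3 kb of its start site. The stronger one had 4.68, 7.995 and 8.53 in WENR-plus and 6.78, 7.92 and 12.2 in WENR-minus libraries. Prss2 and Cyp2d34 belong to families of similar neighbouring genes, and the lists do not show how reads that fit several copies were placed.

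Members near chosen genes were sought in 11 lists of 292 genes, as regions whose nearest protein-coding start site was at most 100 kb away. The lists hold genes of known roles in the gut, and 1 list holds the epidermal differentiation complex, genes of stratified epithelia. The lists together drew 7 members (2.65%), against 1.53% of all regions, 3.00% of shared and 2.21% of proximal-biased regions. Of the 7 members, 2 were assigned to listed genes of the epidermal differentiation complex, a locus chosen after its values were seen. The joint share is therefore not one of gut genes alone. No member was assigned to the Hox clusters, the intestinal transcription factors, the stem cell and Wnt genes, the enteroendocrine genes, the cell cycle inhibitors or the Notch and EGF genes. These 6 lists were small, each with 0.0423% to 0.332% of all regions, so a count of 0 among 264 members says little of them. For the Hox clusters there were 65 regions in all, 17 of them shared.

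Among the transport genes, a member lay in an intron of Nr3c2, the mineralocorticoid receptor through which aldosterone drives sodium uptake. Its fold was 6.56, 6.996 and 4.49 in distal WENR-plus and 5.16, 5.52 and 6.29 in distal WENR-minus libraries, and it had 1 proximal call, with a fold of 4.37. Another lay 48.5 kb from Atp12a, the non-gastric proton pump of the colon, with 4.85, 8.44 and 6.83 in WENR-plus and 4.52 and 4.73 in WENR-minus replicates 1 and 2. A member 3.95 kb from Lypd8, a secreted protein that keeps bacteria off the colon surface, was called in 4 distal libraries with fold of 4.63 to 6.66. The region near Bmp2, a ligand of the BMP pathway, was among the weakest, with 3.84 to 5.13 in 4 distal libraries and 4.12 in 1 proximal library. With −log10 q of at least 5, and likewise in lists of equal length, the regions near Atp12a, Lypd8 and Bmp2 were called in 2, 2 and 0 distal libraries and no longer met the rule, while the one in Nr3c2 kept 5 distal calls.

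The epidermal differentiation complex, a cluster of genes for the cornified envelope and related proteins of stratified epithelia, held 3 members. Over its 31 listed genes, spanning chr3:90511034-93564643, there were 97 Cdx2 regions, of which 3 (3.09%) were members, 14 shared and 5 proximal-biased. Over all regions 0.430% were members, 9.23% shared and 8.32% proximal-biased. With 3 members and a locus chosen after its values were seen, the difference was not tested. Besides the region near Crnn, one lay 8.06 kb from Lor, which encodes loricrin, and had fold of 8.38, 9.33 and 8.53 in distal WENR-plus and 8.39, 5.92 and 6.40 in distal WENR-minus libraries. Both were called in all 6 distal and 0 proximal libraries. The third lay 0.105 kb from the start site of Sprr2a2, a small proline-rich protein, and was weak, with fold of 3.09 to 4.01 in 6 distal libraries and 3.30 in 1 proximal library. Sprr2a2 has near-identical copies beside it, and the lists do not show how reads that fit several copies were placed there.

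The Cdx2 motif was less common under members than under the other classes. It lay within 50 bp of the summit in 120 of 264 members (45.5%, 95% Wilson interval 39.6% to 51.5%). The share was 58.1% (56.7% to 59.4%) in proximal-biased, 66.7% (65.5% to 67.9%) in shared and 57.1% in all regions. In windows placed 1000 bp to either side it was 10.04% in members, 10.7% in proximal-biased and 10.98% in shared regions, so members stood well above the level of their surroundings. Within each of the 6 distal libraries, members had a lower share than shared regions. The mean was 41.2 ± 2.89% against 62.0 ± 3.50% (SD over 3 replicate numbers), a difference of −20.7 percentage points that ran from −24.2 to −17.1 (two-sided exact sign-flip permutation p = 0.25, the smallest possible). Every library scored calls from the same fixed sets of regions, so this spread and p cover summits and calls, not independent regions. The difference from shared regions kept its sign in lists of equal length, at −13.9 points. There the motif lay in 58.9% (54.4% to 63.2%) of distal-biased and 64.0% (60.4% to 67.5%) of proximal-biased regions. That gap was smaller than in the full lists, and its intervals overlapped. Fold ranks were also lower in members than in shared regions, and the part of this in the motif share was not tested.

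The 4 forms of the motif were counted one by one. TTTATGG lay in 15.9% of members (11.99% to 20.8%), 13.7% of proximal-biased, 17.0% of shared and 11.4% of all regions. TTTATGA lay in 14.02% of members, 18.9% of proximal-biased and 29.1% of shared regions. TTTATTG lay in 14.4%, 21.4% and 22.6%, and TTTATTA in 10.98%, 19.1% and 17.9%. Members were thus below both other classes for 3 of the forms and between them for TTTATGG, and the difference between forms was not tested. The GC content of the windows had a median of 38.6% in members and in shared regions and of 37.6% in proximal-biased regions.

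The 6-mers of the windows were ranked by the ratio of their share in members to that in proximal-biased regions. Only 6-mers found in at least 10 windows of each class were ranked, so rarer ones could not appear at either end. The 5 with the highest ratio were ACGAGG (12 members, 4.55% against 0.899%), CTTGTA (35 members, 13.3% against 4.83%), GGACAC (5.68% against 2.40%), CAGTCC (7.58% against 3.34%) and GTCCAA (7.20% against 3.38%), each counted on either strand. The 5 with the lowest ratio were ATTATA (4.92% against 14.7%), ATATTA (3.79% against 10.3%), ATAATA (6.44% against 16.1%), AATAAT (5.68% against 14.1%) and AATTGT (3.79% against 8.99%), of which the first 4 are built of A and T alone. These are the ends of a ranking over 1109 6-mers, and no test was made. The palindrome TAATTA, typical of other homeodomain sites and looked at after its values were seen, lay in 6 members (2.27%), 10.3% of proximal-biased and 7.49% of shared regions. With 6 members it was below the floor of the ranking and was not part of it.

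CTTGTA was part of an octamer, TTTACAAG (CTTGTAAA on the other strand), that recurred under members. The octamer was chosen after the windows were examined, so its shares are a description. It lay within 50 bp of the summit in 19 members (7.20%, 95% Wilson interval 4.66% to 10.97%). It lay in 40 proximal-biased (0.782%, 0.575% to 1.06%), in 66 shared (1.16%, 0.916% to 1.48%) and in 0.975% of all regions. In windows 1000 bp away it was found in 0.189% of members, 0.479% of proximal-biased and 0.423% of shared regions. None of the 4 forms of the Cdx2 motif is contained in it, and 16 of the 19 members that held it lacked the Cdx2 motif. Of the proximal-biased regions with the octamer, 20 lacked and 20 held the Cdx2 motif, and of the shared regions 30 lacked and 36 held it. With 19 members this difference was not tested. In the distal libraries' own summits, 6.17% to 7.46% of member peaks held it, against 1.21% to 1.55% of the peaks in shared regions. In lists of equal length the octamer lay in 4.22% of distal-biased, 0.705% of proximal-biased and 1.20% of shared regions.

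To show the bases around the octamer, 8 of these sites are printed on the strand that reads TTTACAAG, with the octamer in capitals and 10 bases to each side. They include the 3 strongest and the weakest by fold rank.
Crnn, chr3:93162621-93162648, plus strand: gctctcagttTTTACAAGgcaatttcag
Mrps6, chr16:92148465-92148492, plus strand: accccatgatTTTACAAGgcaatccacc
Lor, chr3:92091208-92091235, plus strand: aggccgagctTTTACAAGaaagcagctg
Kdm2a, chr19:4387530-4387557, plus strand: aaaccaagcaTTTACAAGtggtgataca
Klf6, chr13:5859227-5859254, minus strand: tacacagaaaTTTACAAGcaaaagtcca
Pard3, chr8:127451791-127451818, plus strand: ttgacctcctTTTACAAGgagtcctaga
Capza2, chr6:17633818-17633845, plus strand: agtaatgaaaTTTACAAGgctcaagaag
Bmp2, chr2:133517913-133517940, plus strand: ttttaaaaggTTTACAAGtcagaaagca
Over the 18 sites on chromosomes other than 18, no flanking position had the same base in more than 8 sites. The sites were chosen by an exact match to the octamer, so this does not show where a recurring sequence ends. The octamer lay up to 40 bp from the summit and in either orientation. Of these regions Klf6, Capza2 and Ppp2r3d were at promoters, within 3 kb of the start site, and those near Kdm2a, Oxr1, Pard3b, Pard3 and Mtmr7 were in introns of these genes.

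Octamers that differ from it at 1 or 2 positions were counted in the same windows. TTTATAAG lay in 4.55% of members, 0.665% of proximal-biased and 1.23% of shared regions. TTTATGAG, which contains the Cdx2 form TTTATGA, lay in 7.58%, 2.52% and 3.37%. TTTACGAG lay in 1.14%, 0.0977% and 0.247%, which is 3, 5 and 14 regions, and TTTACTAG in 1.52%, 0.313% and 0.423%. In contrast TTTACCAG lay in 1 member (0.379%) and TTTATCAG in 1 member, near the shares of the other classes. TTTATTAG lay in 3.03%, 2.05% and 2.12%. The shorter TTACAAG, contained in the octamer, lay in 23 members (8.71%), 1.76% of proximal-biased and 2.15% of shared regions.

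**Figure D3:**
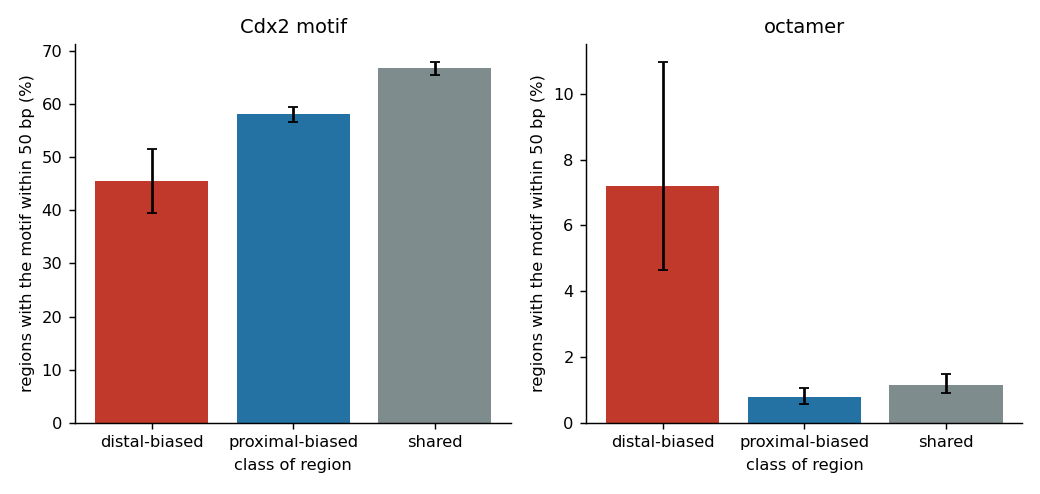
Share of regions with the Cdx2 motif (left) and the octamer (right) within 50 bp of the summit (%), for 264 distal-biased, 5116 proximal-biased and 5672 shared regions, with 95% Wilson intervals for counting error. Distal-biased regions had the lowest share of the Cdx2 motif (45.5%) and the highest share of the octamer (7.20%).

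Both shares differed between regions with few and with many proximal calls. The octamer was chosen on the members, which are the groups with 0 and 1 proximal calls, so its values there describe that choice. Among regions called in at least 4 distal libraries, the octamer lay in 8.13% of those with 0 proximal calls, 5.77% with 1, 3.67% with 2 and 3.24% with 3. It lay in 1.498%, 1.05% and 1.14% of those with 4, 5 and 6. The Cdx2 motif lay in 43.8%, 48.1%, 51.4% and 57.3% of the regions with 0, 1, 2 and 3 proximal calls and in 67.9%, 63.7% and 67.4% of those with 4, 5 and 6. The share of the Cdx2 motif was thus higher with each added proximal call up to 4 and had no single direction from 4 to 6, and this order was not tested. The 248 regions just outside the rule, with 3 distal and 0 or 1 proximal calls, held the octamer in 11 cases (4.44%, 2.49% to 7.77%) and the Cdx2 motif in 43.1%. Regions with 2 and 1 distal calls held the octamer in 1.54% and 1.34%.

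**Figure D4:**
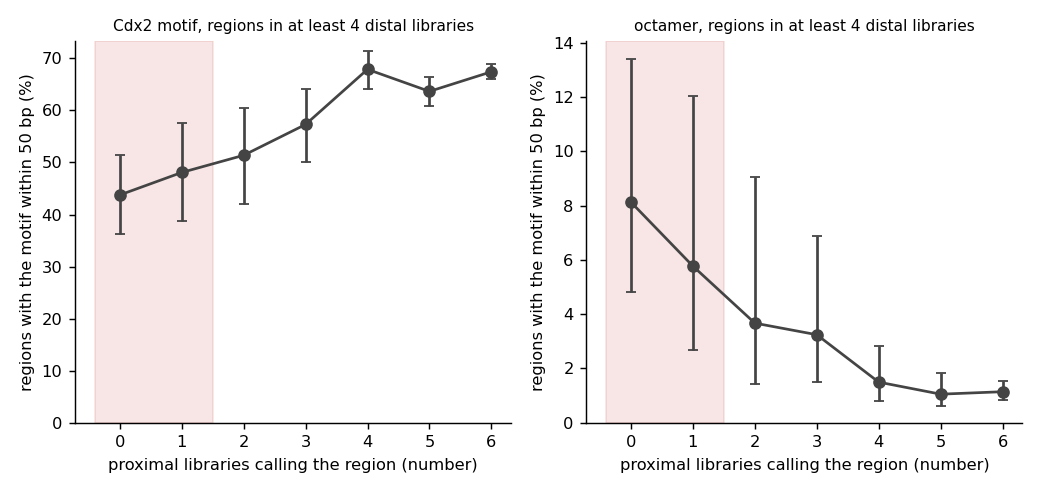
Share of regions with the Cdx2 motif (left) and the octamer (right) within 50 bp of the summit (%), by the number of proximal libraries that called the region, among regions called in at least 4 distal libraries. Bars are 95% Wilson intervals for counting error and the shaded part marks the distal-biased regions. The octamer went from 8.13% at 0 to 1.14% at 6 proximal calls, and the Cdx2 motif from 43.8% to 67.4%.

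The Cdx2 motif was most frequent next to the summits of members. In the 50 bp before and after the summit, 25% and 27.7% of members held the Cdx2 motif, against 4.92% and 6.82% in the outermost bins of a 1000 bp window. The octamer lay in 12 and 8 members in the bins before and after the summit, which restates its choice from the windows within 50 bp of the summit.

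**Figure D5:**
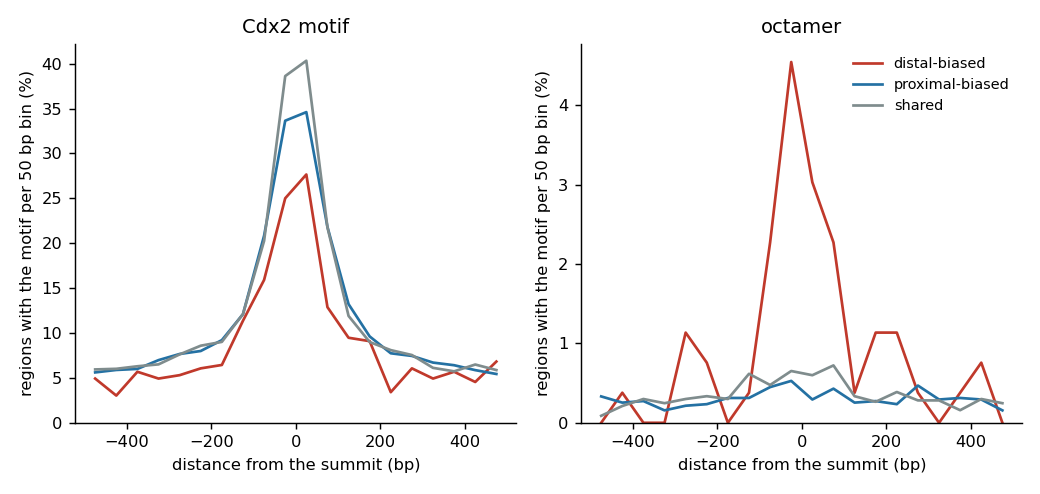
Share of regions with the motif in each 50 bp bin (%) by distance from the summit (bp), for the Cdx2 motif (left) and the octamer (right). Members (red) had the Cdx2 motif in up to 27.7% in the bin with the most. For the octamer the bin with the most held 4.55%, beside the summit, from whose surroundings the octamer had been chosen.

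Motifs of other factors of the gut epithelium were counted in the same windows. The AP-1 motif TGANTCA lay in 27 members (10.2%, 7.12% to 14.5%), 7.39% of proximal-biased and 10.5% of shared regions. The GATA motif AGATAA lay in 8.71%, 10.2% and 10.8%, and the HNF4 motif CAAAGTNCA in 2.65%, 1.29% and 2.05%. The shares for TCF/LEF (CTTTGAT), KLF/SP (CCNCNCCC), TEAD (GGAATG) and ETS (GGAAGT) in members were 3.03%, 5.68%, 6.44% and 6.06%, and for shared regions 2.80%, 4.62%, 8.62% and 7.28%. The FOXA motif TGTTTAC lay in 4 members (1.52%) and 3.03% of shared regions. The posterior Hox form TTTACGA lay in 6 members (2.27%, 1.05% to 4.87%), 1.27% of proximal-biased and 2.05% of shared regions. The interval of members held the shared value for each of these, and the CTCF motif lay in 0 of 264 members, which allows a share of up to 1.14% by a limit of 3 counts (upper Wilson bound 1.43%).

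Members were scattered over the genome. They formed 16 groups of 2 with summits within 50 kb of each other, and no larger group. The 3 with the closest summits were near Dync2h1, Nxpe4 and in the Rgs6 intron, each spanning under 2 kb with no shared region inside. The median distance of a member to the nearest protein-coding start site was 28.5 kb, between 22.2 kb for shared and 29.5 kb for proximal-biased regions. A shared region lay within 50 kb of 40.9% of members and 32.7% of proximal-biased regions. For shared regions the share with another shared region within 50 kb was 41.2%, close to that of members. Chromosome X held 3 members (1.14%), against 3.84% of shared, 5.18% of proximal-biased and 6.72% of all regions. Chromosome 1 held 27 (10.2%), against 7.73% of all regions.

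Members had a median region width of 457.5 bp, against 764 bp for shared and 488 bp for proximal-biased regions. A region spans all its merged peaks, and the rule gave shared regions calls in more libraries, so these widths are not independent of it. Within the distal libraries, median peak widths were 180 to 303 bp in members and 265 to 407 bp in shared regions. The summit lay in repeat-masked sequence in 35 members (13.3%), 17.4% of proximal-biased and 18.5% of shared regions. The members with the lowest fold ranks, named after their values were seen, were near Gm10717 and Gm10718 on chromosome 9. Their fold was 1.58 to 2.06 and 1.80 to 2.24 while −log10 q was 43.4 to 91.4 and 42.9 to 93.4, a combination of low ratio and very low q-value. The span of 4.825 kb over both held 6 Cdx2 regions, 3 of them shared. Peaks of this kind were not removed here, and the lists do not show how reads that fit several places were placed. Whether these are Cdx2 sites is therefore uncertain.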

How the data were processed

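Cdx2 ChIPmentation, in which adapters are inserted by a transposase on the beads, was analysed in 12 libraries (4 groups of 3). The 12 input libraries had been used by the authors as controls and were not analysed here. The authors used, with versions from the submitters' processing notes, Trimmomatic 0.39 for trimming, Bowtie2 2.4.5 for alignment to mm10, SAMtools 1.13 to drop duplicates and MACS2 2.2.7.1 for the peaks of each library (q-value limit 0.01, own input as control). The study's supplement names other versions of Bowtie2 and SAMtools. The deposited fold is the ratio of summit signal to input background. The −log10 p and −log10 q were deposited by the authors, as was the score, 10 times the −log10 q. Read totals stated by the study were not used here.

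Peaks were merged with Python 3.11.15 scripts (numpy 2.4.6, pandas 2.3.3, pysam 0.24.0, scipy 1.17.1), tested on simulated peaks. Sequence came from GRCm38, the assembly of mm10, and start sites from GENCODE vM21. Positions are 1-based. The summit of a region was that of its peak with the highest −log10 q. Motif and promoter shares carry 95% Wilson intervals, which cover counting error only. Tests were two-sided exact permutations over 3 against 3 libraries (smallest p 0.1) or sign flips over 3 replicate numbers (smallest p 0.25), so none could pass 0.05, and regions were never used as replicates. The sign flips read the same fixed sets of regions in each distal library. Alternatives were lists of equal length, −log10 q of at least 5, other windows, promoter definitions and rules, and leaving out each replicate number.

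Regions named were the 10 highest mean fold percentiles among members in all 6 distal and 0 proximal libraries, the 10 highest within 3 kb of a protein-coding start site, those assigned to the gene lists, and the 3 groups with the most members, the closest summits first. Regions on chromosome 18 were not named. The members, lists and motifs were chosen with earlier results of these data known.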

Additional observations from a re-analysis of the deposited data

How the results depend on the processing

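The number of distal-biased regions depended on the lists. It was 264 as reported, 474 in lists of equal length, 170 with −log10 q of at least 5 and 78 under the rule of at least 5 distal and 0 proximal libraries. Leaving out each replicate number, with at least 3 of 4 distal and at most 1 of 4 proximal libraries, gave 253 to 416, the highest without replicate 1. Merging summit windows gave 280, and an overlap of at least 100 bp changed nothing because every peak lies whole in its region. The share of members with the Cdx2 motif was 24.6% and 63.6% within 25 bp and 100 bp of the summit, which follows from the window, and 58.9% in lists of equal length. The promoter share was 16.3% for protein-coding start sites, 9.85% at 1 kb and 18.8% with −log10 q of at least 5. Its difference from shared regions turned to −0.900 points in lists of equal length. The difference between media in members called ran from 3.03 to 32.4 points with 1 replicate number left out and turned to −1.20 points in lists of equal length. That in fold percentile ran from −8.25 to 11.3 points. The cause of these changes was not tested. The lower motif share of members against shared regions kept its direction in 7 of 7 alternatives. The octamer alternatives were chosen after seeing the data. Its share in members was 4.22% in lists of equal length (0.705% in proximal-biased and 1.20% in shared regions), 5.88% with −log10 q of at least 5, and 10.3% under the stricter rule. Of the 28 regions named by the rule, 18 stayed distal-biased in lists of equal length and 21 with −log10 q of at least 5.

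With a replicate block, the p of the difference between media of 17.3 points was 0.5 and that of 4.14 percentile points was 1.0. The labels do not say that a number is shared between media. Deviations of same-numbered distal libraries correlated at 0.113, −0.0166 and 0.216 for numbers 1, 2 and 3, and those of proximal libraries at 0.0410, 0.133 and 0.298. Between other-numbered libraries they ran from −0.185 to 0.0529 in distal and from −0.201 to 0.0806 in proximal libraries. These values do not settle whether the numbers pair the samples, because deviations in calls also depend on list length.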
